A study of Mus musculus with 24 samples.

Results

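The genes that encode the NKG2D and CD94/NKG2 receptors of natural killer (NK) cells and their signaling adaptors are described here across 24 RNA-seq libraries. They are the genes of the deposited count table whose name is Klrk1, Hcst, Tyrobp, Klrc1, Klrc2, Klrc3, Klrd1 or Klre1, that is 8 of 45237 genes, and all 8 are among the 17097 genes with enough counts to be tested. The study aimed to build a mouse tumor model of NK cell dysfunction, relate it to immune checkpoint proteins and ask whether it is reversible. NK cells came from the spleens of wild-type (WT) C57BL/6J mice, female and 7 to 9 weeks old unless otherwise specified per the methods, and were sorted as negative for lineage markers such as CD3, CD5 and T cell receptors and positive for NKp46 or NK1.1. Control mice (4 libraries) were not treated and carried no tumor. RMA mice carried the RMA line, a T cell lymphoma that keeps its MHC-I. Per the paper these RMA cells expressed ZsGreen as well, and its methods describe RMA cells given an empty lentivirus. RMA mice were sampled early (day 2, 3 libraries), at an intermediate stage (day 4, 3 libraries) or late (day 9, 3 libraries). RMA-KR mice carried RMA cells in which B2m was knocked out with CRISPR-Cas9, which removes MHC-I from the surface, and to which a lentivirus added ZsGreen and the NKG2D ligand Rae1-beta. They were sampled early (day 2, 3 libraries), at an intermediate stage (day 7, 5 libraries) or late (day 14, 3 libraries). RMA-KR is 1 clone obtained by limiting dilution, and it differs from RMA in MHC-I and in Rae1-beta together, so these features cannot be told apart. Beyond the early stage the days of the RMA and RMA-KR groups differ, so tumor and day cannot be told apart there either.

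NKG2D, encoded by Klrk1, is an activating receptor that binds stress-induced relatives of MHC-I such as the Rae1 proteins, and in mice it signals through the adaptors DAP10 (Hcst) and DAP12 (Tyrobp). CD94 (Klrd1) pairs either with NKG2A (Klrc1), which carries inhibitory motifs, or with NKG2C or NKG2E (Klrc2, Klrc3), which activate through DAP12, and these pairs bind Qa-1 (H2-T23), an MHC-I-like molecule that presents peptides cut from other MHC-I proteins. KLRE1 (Klre1) is a related receptor that works with KLRI1 or KLRI2.

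The 6 receptor genes lie in 101.1 kb of chromosome 6, with Klre1 and Klrd1 on the plus strand and Klrk1, Klrc3, Klrc2 and Klrc1 on the minus strand. The adaptor genes Tyrobp and Hcst are neighbors on chromosome 7, transcribed toward each other with 126 bases between their ends. Klrc1, Klrc2 and Klrc3 resemble each other so closely that a read of 50 bases, the length sequenced, cannot always be given to 1 of them. Of all windows of 50 bases in the annotated transcripts, 38.6% of those of Klrc1, 16.3% of those of Klrc2 and 36.3% of those of Klrc3 also occur in another gene, and 0.28% of those of Klre1 do. For Klrk1, Hcst, Tyrobp and Klrd1 that share is 0%. Counts of the 3 Klrc genes are therefore uncertain, and whether shared reads were dropped or moved between these genes was not tested. The following stretch of coding sequence, from GENCODE M21 transcripts on GRCm38 and read 5′ to 3′ along the minus strand, shows how near the 3 genes are. It is 80 bases long and lies at chr6:129674882-129674961 in Klrc1, chr6:129656394-129656473 in Klrc2 and chr6:129639108-129639187 in Klrc3. The capital marks the only base at which the 3 differ, where Klrc3 departs from the other genes.
Klrc1 coding stretch: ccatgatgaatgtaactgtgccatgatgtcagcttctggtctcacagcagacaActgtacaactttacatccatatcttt
Klrc2 coding stretch: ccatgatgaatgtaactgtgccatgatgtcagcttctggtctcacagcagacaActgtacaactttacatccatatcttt
Klrc3 coding stretch: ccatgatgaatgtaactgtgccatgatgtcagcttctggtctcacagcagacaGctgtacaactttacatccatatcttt

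Promoter windows (250 bases before to 50 after a start site, from RefSeq on GRCm38.p6) were found for 6 of the 8 genes, in 8 entries, with 2 overlapping entries each for Klrc2 and Klre1. The set of windows used holds no entry for Klrd1 or Tyrobp, although both genes are annotated. The windows of Klrc2 and Klrc3 are printed because these genes share nearly the same start region. They lie on the minus strand at chr6:129660507-129660806 and chr6:129643239-129643538, and capitals mark each base that differs or has no partner in the other sequence.
Klrc2 promoter: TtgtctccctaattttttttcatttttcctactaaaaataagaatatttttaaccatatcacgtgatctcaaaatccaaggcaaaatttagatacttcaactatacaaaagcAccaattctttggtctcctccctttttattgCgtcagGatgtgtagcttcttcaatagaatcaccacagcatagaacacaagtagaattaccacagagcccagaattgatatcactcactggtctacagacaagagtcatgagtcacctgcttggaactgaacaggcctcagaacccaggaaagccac
Klrc3 promoter: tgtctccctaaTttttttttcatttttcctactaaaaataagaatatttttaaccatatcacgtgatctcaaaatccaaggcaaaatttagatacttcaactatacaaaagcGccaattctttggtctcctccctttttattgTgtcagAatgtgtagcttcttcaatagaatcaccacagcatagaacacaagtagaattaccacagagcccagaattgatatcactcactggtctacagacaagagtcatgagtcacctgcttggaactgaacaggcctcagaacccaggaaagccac

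In the alignment of these windows 296 bases are identical, 3 are substituted and 2 have no partner (98.3% identity), against 51.7% identity between the windows of Klrc1 and Klrc2. Short motifs (5) were searched for on both strands. The AP-1 motif TGANTCA is in 4 of the 8 windows (Klrk1, Klrc3 and both entries of Klrc2), and it is in 7.81% of all 32851 promoter windows. The Runx motif TGTGGT is in 6 of 8 windows (Klrk1, Klrc1, Klrc3, both entries of Klrc2 and 1 of Klre1) and in 16.8% of all. The Klrc2 entries overlap each other and nearly match Klrc3, so their AP-1 and Runx matches are not separate from each other. An Ets motif, GGAAGT, is in the window of Hcst only and in 23.8% of all. Neither the T-box motif GGTGTGA (3.98% of all) nor the gamma-activated site TTCNNNGAA (8.3% of all) is in any of the 8. A match is a match of letters, and whether a factor binds there was not measured.

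Libraries held from 5138651 to 14863500 counts (median 10489204), with the smallest among the controls. Levels are given as normalized CPM, each gene's share of the library's counts after scaling between libraries by edgeR's TMM method. The fewest counts for a member in any library were 166, for Klrc3, so counting error is small beside the spread between libraries. Over the 31 pairs of libraries from the same group, the variance of the counts was 19.4 to 112 times what counting alone gives (chi-square per degree of freedom). The labels number the libraries of a group without saying that each is a separate animal, and the study's figure legend gives 3 mice a group for the late and control groups, of which the controls have 4 libraries here. P-values measure the spread between samples.

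Sorted cells had the markers of their label. Of 10 NK cell genes none was under 1 normalized CPM on average, the most abundant was Gzma (mean 9980), Ncr1 had a mean of 3120 and Klrb1c of 1760, and the list summed to between 19630 and 36130 in each library. Of 13 T cell genes, a list that would also show the RMA lymphoma, 5 were under 1 on average (Cd3e, Cd6, Cd4, Cd8a, Cd8b1), and the most abundant was Trbc1 (286). Of the B cell genes Cd79a, Ms4a1 and Pax5 were under 1, and the most abundant was Ighm (336). Of 12 macrophage and monocyte genes 6 were under 1, with Ccr2 the most abundant (1210), and 4 of 7 dendritic cell genes were under 1, with Itgax the most abundant (697). All 9 granulocyte genes and all 6 red blood cell genes were under 1 on average. No gene of these lists was at 0 in all libraries.

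Of the 24 libraries 4 stand apart from the other 20. The summed level of 13 immediate early and heat shock genes, a list written after the data were seen, was 1253 to 1389 normalized CPM in control 4 and in RMA-KR intermediate 3, 4 and 5, and 4368 to 9862 in all others. Within those others the sum was 4751, 4767 and 5150 in RMA intermediate and 5008, 4368 and 5625 in RMA late, below the other 3 controls (7080, 7470 and 8570), and its part in the results of these groups was not tested. Markers of type 1 innate lymphoid cells (5 genes, of which Zfp683 was under 1 on average and Il7r was the most abundant, with a mean of 21.8) summed to 131 in control 4 and to 126, 208 and 133 in RMA-KR intermediate 3, 4 and 5, against 8.25 to 65.3 in the others. NK cell markers in these libraries summed to 23000, 20870, 20850 and 19630. No label names a batch for them. For the main tests that use these groups, values without them are given as well.

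The 8 members together made up between 0.437% (RMA intermediate 2) and 0.865% (RMA early 1) of a library's counts. Per kb of annotated exon, the median level over the 24 libraries was 2131 normalized CPM for Tyrobp, 886 for Klrd1, 313 for Klrk1 and 278 for Klre1. It was 201 for Klrc1, 134 for Hcst, 82.2 for Klrc2 and 62.6 for Klrc3. The length joins the exons of all annotated transcripts, 7183 bases for Klrk1 and 5812 for Klrc2 against 736 for Klrc3. Which transcripts the cells use was not measured, so this order of genes is uncertain. Without the length, the median was 2247 normalized CPM for Klrk1, 1421 for Tyrobp, 478 for Klrc2 and 46.1 for Klrc3. Klrc3 varied most, with its highest library 3.32 times its lowest, then Klrc2 (3.20 times) and Hcst (2.56 times). The other 5 genes varied from 1.96 (Klrk1) to 2.31 times (Klre1). The plot of the members' levels shows each library as a point, with the 4 libraries that stand apart drawn open.

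**Figure D1:**
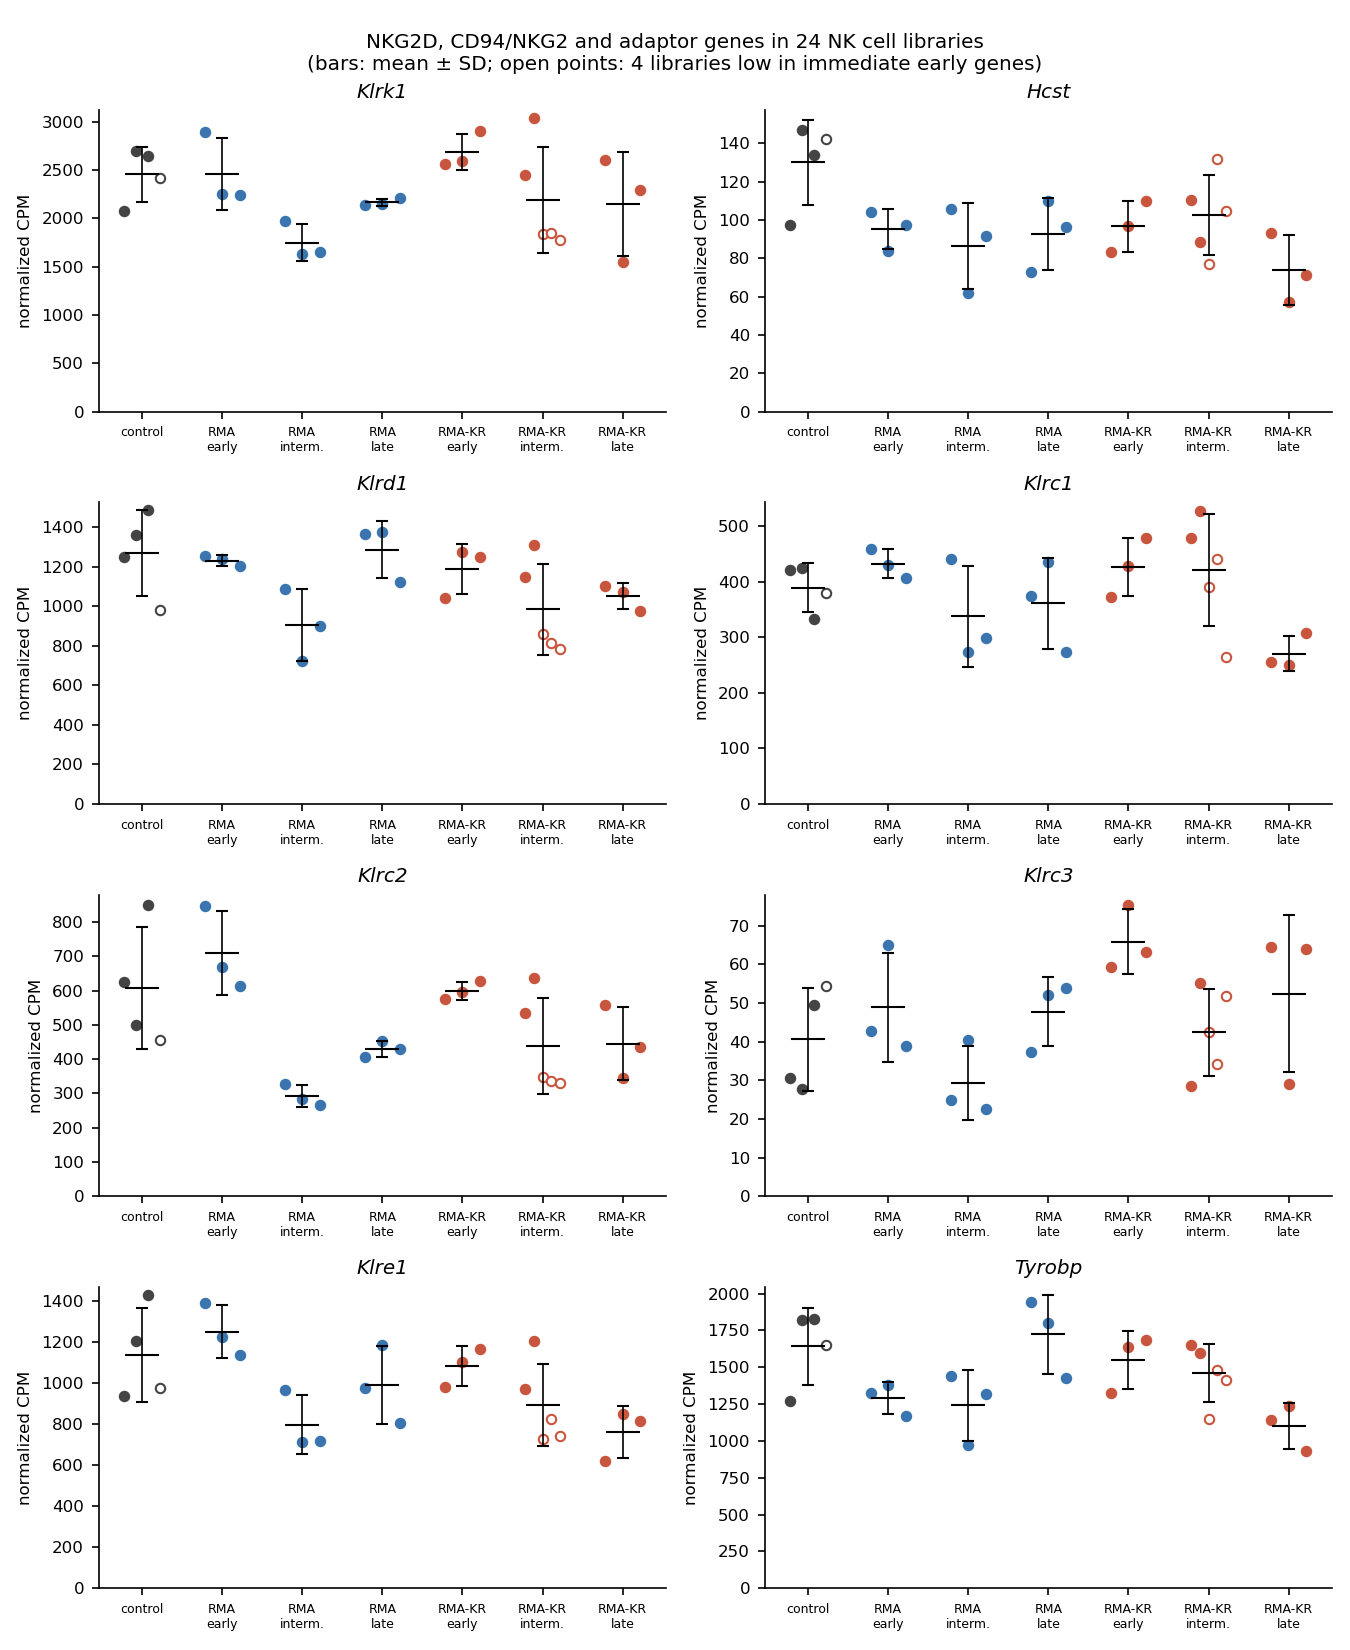
Normalized CPM of each of the 8 genes in each library, by group, with the mean and SD. Open points are control 4 and RMA-KR intermediate 3, 4 and 5.

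Klrk1 encodes NKG2D itself. Its normalized CPM was 2073, 2698, 2643 and 2415 in the controls, 2890, 2254 and 2240 in RMA early, 1972, 1630 and 1650 in RMA intermediate, and 2143, 2149 and 2207 in RMA late. In RMA-KR it was 2562, 2592 and 2902 early, 2445, 3044, 1834, 1847 and 1779 at the intermediate stage, and 2603, 1549 and 2295 late. All 3 RMA intermediate libraries were below all controls, and every other tumor group overlapped the controls. In RMA-KR intermediate the 3 libraries that stand apart were the 3 lowest. By group mean the order was RMA-KR early (2685), RMA early (2461), control (2457), RMA-KR intermediate (2190), RMA late (2166), RMA-KR late (2149) and RMA intermediate (1751), and each group overlapped the next.

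A gene is called when its adjusted p in edgeR's quasi-likelihood test, Benjamini-Hochberg over 17097 genes, is under 0.05. Klrk1 was called in no comparison. In RMA intermediate against control its log2 fold change was -0.49 (standard error 0.180, adjusted p 0.200), and with the 2 groups fitted alone the adjusted p was 0.0425. Leaving out the 4 libraries that stand apart gave -0.48 (adjusted p 0.208). In RMA-KR intermediate against control it was -0.17 (adjusted p 0.999), and 0.17 without those libraries. In RMA-KR late against control the log2 fold change was -0.19 (adjusted p 0.664), and between RMA late and RMA-KR late it was 0.01 (95% interval -0.38 to 0.41). In bulk RNA, fewer cells that express a gene and less of its RNA per cell cannot be told apart, which holds for every value here.

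CD94, the shared partner of the NKG2 chains, is encoded by Klrd1. Control libraries had 1251, 1361, 1488 and 981 normalized CPM, RMA intermediate 1089, 724 and 902, and RMA-KR intermediate 1147, 1312, 863, 816 and 786. The lowest control was control 4, 1 of the libraries that stand apart, and the 3 lowest in RMA-KR intermediate were the others of them. Late libraries had 1366, 1375 and 1123 in RMA and 1102, 1075 and 978 in RMA-KR, which did not overlap each other but did overlap the controls. Early libraries had 1253, 1241 and 1203 in RMA and 1044, 1275 and 1250 in RMA-KR, all within the range of the controls. Klrd1 had a log2 fold change of -0.49 in RMA intermediate against control (adjusted p 0.185), -0.37 in RMA-KR intermediate (adjusted p 0.762) and 0.29 between RMA late and RMA-KR late (adjusted p 0.701), and was called nowhere. With control 4 and RMA-KR intermediate 3, 4 and 5 left out it was -0.58 in RMA intermediate (adjusted p 0.0514) and -0.14 in RMA-KR intermediate (adjusted p 0.915).

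NKG2A, the inhibitory chain, is encoded by Klrc1. Its normalized CPM was 422, 425, 332 and 380 in the controls, 373, 429 and 479 in RMA-KR early and 255, 250 and 307 in RMA-KR late. All RMA-KR late libraries were below all controls and below all RMA-KR early libraries. The other groups, RMA early (408 to 460), RMA intermediate (273 to 442), RMA late (273 to 436) and RMA-KR intermediate (264 to 529), overlapped the controls. The log2 fold change in RMA-KR late was -0.53 against control (standard error 0.206, adjusted p 0.285) and -0.66 against RMA-KR early (standard error 0.218, adjusted p 0.206). Neither is called, and RMA intermediate against control gave -0.21 (adjusted p 0.657). With control 4 and RMA-KR intermediate 3, 4 and 5 left out, RMA-KR late against control gave -0.50 (adjusted p 0.357) and RMA intermediate -0.20 (adjusted p 0.692).

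Klrc2, whose promoter and coding stretch are printed above, encodes the activating chain NKG2C and was the only member called. The controls had 624, 501, 851 and 455 normalized CPM, RMA early 849, 668 and 613, RMA intermediate 329, 282 and 266, and RMA late 406, 453 and 430.2. RMA-KR libraries had 576, 595 and 629 early, 534, 637, 348, 337 and 331 at the intermediate stage, and 557, 345 and 435 late. All RMA intermediate libraries lay below every library of every other group, and control 3 was the highest of all 24. RMA late also lay below all controls. By group mean the order was RMA early (710), control (607.5), RMA-KR early (600.1), RMA-KR late (445.5), RMA-KR intermediate (437.2), RMA late (429.6) and RMA intermediate (292.4). Neighbors in this order overlapped, except that RMA-KR late was below RMA-KR early and RMA intermediate below RMA late.

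In RMA intermediate against control, Klrc2 fell by 1.06 on the log2 scale (standard error 0.235, 95% interval -1.54 to -0.57, adjusted p 0.0141), to 0.481 times the control level, and ranked 197 by p among all genes. The call was lost when control 3 was left out (log2 fold change -0.89, adjusted p 0.0572), and likewise without RMA intermediate 2 (-0.99, 0.105) or RMA intermediate 3 (-0.96, 0.129). It was kept in the other 4 fits that left out 1 library, and over all 7 the log2 fold change was between -1.21 and -0.89. Without the 4 libraries that stand apart it was -1.16 (adjusted p 0.00476). The plot of the alternatives shows each of these values with those of the other ways of processing.

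**Figure D2:**
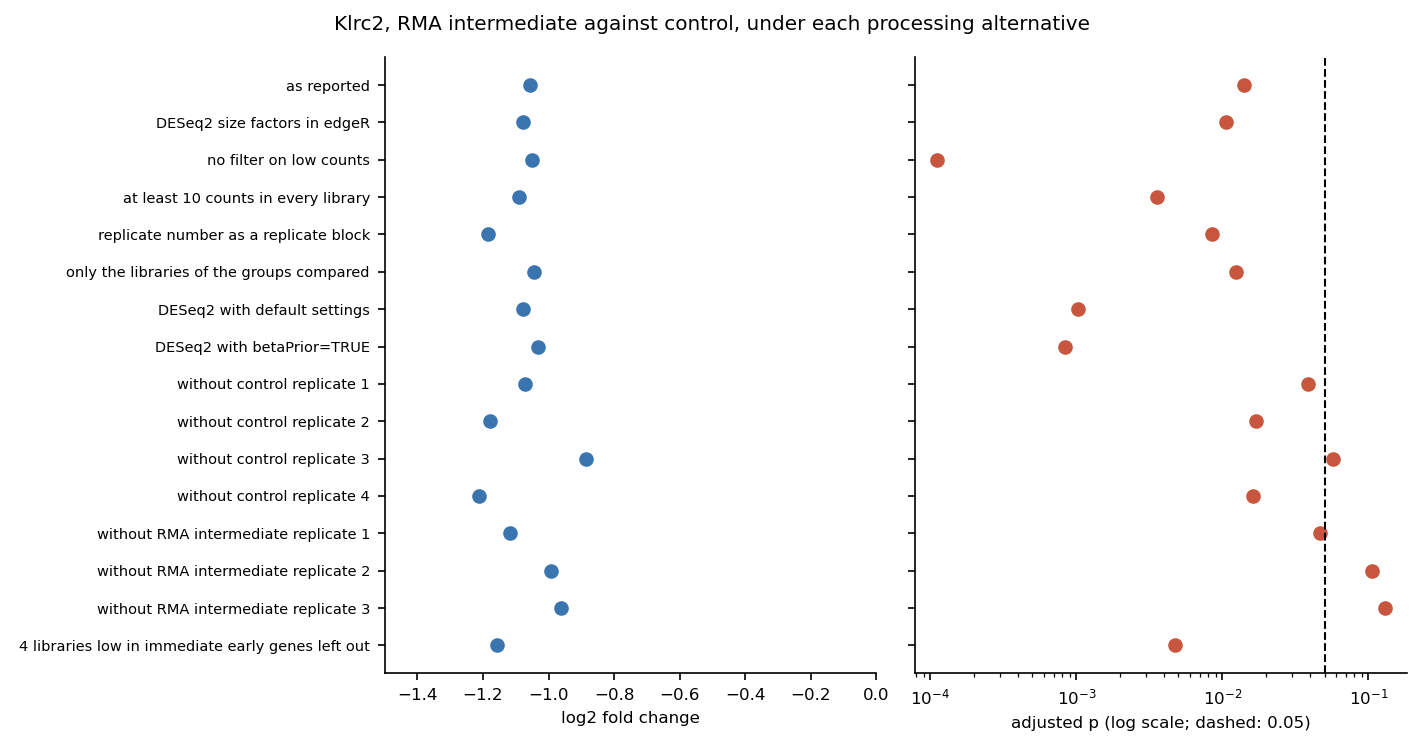
Log2 fold change (left) and adjusted p (right) of Klrc2 in RMA intermediate against control under each alternative, including each fit with 1 library left out. The dashed line is the threshold of 0.05.

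Elsewhere Klrc2 was not called. RMA late against RMA early gave a log2 fold change of -0.72 (standard error 0.245, adjusted p 0.117), with no overlap between the groups. Without the 4 libraries that stand apart this was -0.77 (adjusted p 0.0420), and DESeq2 called it as well (adjusted p 0.0323). RMA intermediate against RMA-KR intermediate gave -0.58 (adjusted p 0.315), and without the 4 libraries, which leaves 2 of 5 in RMA-KR intermediate, it gave -1.0 (adjusted p 0.0372). In RMA late against control it was -0.50 (adjusted p 0.337), and -0.61 without the 4 libraries (adjusted p 0.152). In RMA-KR late against control it was -0.45 (adjusted p 0.366), and -0.52 without them (adjusted p 0.308).

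Counts of Klrc2 over counts of Klrc1 set an activating beside the inhibitory partner of CD94 in the same library. Since both genes share windows with each other, the ratio is uncertain too. It makes no allowance for length (5812 bases of annotated exon in Klrc2, 1984 in Klrc1). Libraries can thus be compared by it, but a ratio above 1 does not show more Klrc2 than Klrc1 RNA. Per kb the medians were 82.2 for Klrc2 and 201 for Klrc1. This ratio of raw counts was 1.48, 1.18, 2.56 and 1.20 in the controls, 0.744, 1.03 and 0.892 in RMA intermediate, and 1.85, 1.55 and 1.5 in RMA early. RMA intermediate was the only group in which all ratios lay below all controls. In RMA-KR the ratio was 1.54, 1.39 and 1.31 early, 1.11, 1.21, 0.889, 0.764 and 1.25 at the intermediate stage, and 2.18, 1.38 and 1.41 late. RMA late had 1.08, 1.04 and 1.57. The early groups and RMA-KR late lay within the range of the controls, and no test was made of any ratio.

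**Figure D3:**
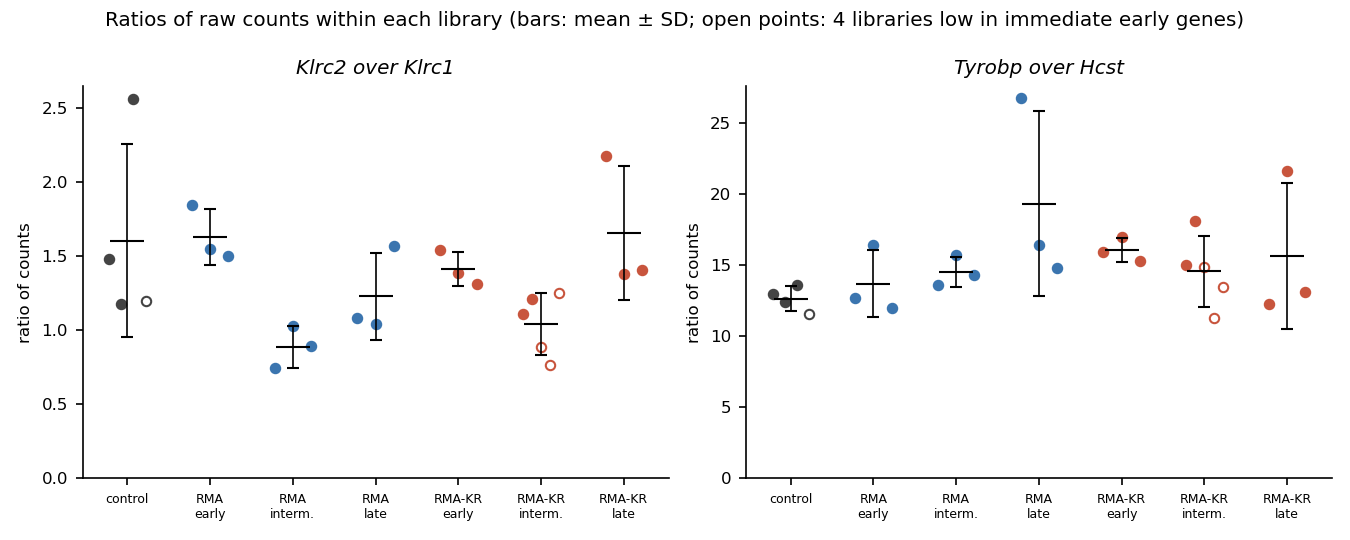
Counts of Klrc2 over Klrc1 and of Tyrobp over Hcst in each library, by group, with the mean and SD. Open points are the 4 libraries that stand apart.

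Klrc3 encodes NKG2E and had the lowest level per kb of annotated exon of the 8. The windows it shares with Klrc2 and Klrc1, and the annotated length used, leave its rank per kb below Klrc2 uncertain. Normalized CPM was 30.7, 27.9, 49.5 and 54.4 in the controls, 59.3, 75.3 and 63.2 in RMA-KR early, and 24.8, 40.3 and 22.7 in RMA intermediate. RMA-KR early was above all controls, and RMA intermediate overlapped them. RMA early (38.9 to 65.1), RMA late (37.4 to 53.8), RMA-KR intermediate (28.5 to 55.1) and RMA-KR late (29.0 to 64.5) overlapped the controls as well. In RMA-KR early against control the log2 fold change was 0.70 (standard error 0.326, adjusted p 0.567), and 0.90 without the 4 libraries that stand apart (adjusted p 0.667). No comparison called this gene, and in RMA intermediate its log2 fold change was -0.47 (standard error 0.333, adjusted p 0.482), with an interval of -1.16 to 0.22 that holds both 0 and the value of Klrc2.

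Klre1, the partner of KLRI1 and KLRI2, had 937, 1204, 1427 and 974 normalized CPM in the controls, 978, 1103 and 1167 in RMA-KR early and 619, 850.2 and 813 in RMA-KR late. RMA-KR late was below all controls and all RMA-KR early libraries. RMA intermediate had 963, 713 and 716, of which 1 library was within the range of the controls. The log2 fold change was -0.58 in RMA-KR late against control (standard error 0.190, adjusted p 0.170), -0.51 in RMA-KR late against RMA-KR early (adjusted p 0.277) and -0.51 in RMA intermediate against control (adjusted p 0.205). Against control it was -0.60 (adjusted p 0.168) and -0.56 (adjusted p 0.163) in these groups without the 4 libraries that stand apart. Of its partners, Klri2 had a mean of 1154 normalized CPM over all libraries and Klri1 of 17.2, and neither was called in any comparison.

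DAP12, the adaptor of NKG2C, NKG2E and, in mice, NKG2D, is encoded by Tyrobp. It had 1270, 1823, 1826 and 1653 normalized CPM in the controls, 1324, 1382 and 1168 in RMA early, 1440, 975 and 1316 in RMA intermediate, and 1945, 1804 and 1426 in RMA late. RMA-KR libraries had 1323, 1639 and 1687 early, 1652, 1600, 1147, 1483 and 1416 at the intermediate stage, and 1144, 1236 and 932 late. RMA-KR late lay below all controls, all RMA-KR early and all RMA late libraries, while RMA late lay above all RMA early libraries. Against control, RMA-KR late had a log2 fold change of -0.57 (standard error 0.166, 95% interval -0.92 to -0.23, adjusted p 0.105). DESeq2 called this difference (adjusted p 0.0333), and so did edgeR without the filter on low counts (0.0402) and with only genes that reach 10 counts in each library (0.0351). It was -0.53 without the 4 libraries that stand apart, 1 of them a control (adjusted p 0.221). RMA late against RMA-KR late had 0.64 (standard error 0.176, 95% interval 0.28 to 1.01, adjusted p 0.655), the largest difference of a member between the late groups, and was called under no alternative (adjusted p 0.106 to 0.895, and 0.310 to 0.944 with 1 library left out).

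For the course of the tumor, Tyrobp had a log2 fold change of 0.42 in RMA late against RMA early (adjusted p 0.224) and of -0.49 in RMA-KR late against RMA-KR early (adjusted p 0.245). The difference of these changes was 0.91 (standard error 0.248, 95% interval 0.39 to 1.42, adjusted p 0.280). Without the filter on low counts it was called (adjusted p 0.0424).

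DAP10, the adaptor that only NKG2D uses among these receptors, is encoded by Hcst. The controls had 97.6, 147, 134 and 142 normalized CPM, RMA-KR late 93.4, 57.3 and 71.1, and RMA intermediate 106, 62.1 and 91.8. RMA-KR late lay below all controls, the nearest being control 1, and RMA intermediate overlapped them through that library. RMA early (84.0 to 104), RMA late (72.7 to 110), RMA-KR early (83.5 to 110) and RMA-KR intermediate (77.1 to 132) also overlapped the controls only through control 1. The mean of the controls (130.1) was the highest of the 7 groups. In RMA-KR late against control the log2 fold change was -0.82 (standard error 0.233, 95% interval -1.30 to -0.33, adjusted p 0.0970), and DESeq2 called it (adjusted p 0.0221). It was -0.73 without the 4 libraries that stand apart (adjusted p 0.256). In RMA intermediate it was -0.59 (adjusted p 0.236), in RMA late -0.49 (adjusted p 0.347) and in RMA early -0.45 (adjusted p 0.705).

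Where RMA-KR late lay below the controls, lists of other cells differed between the same groups. B cell markers summed to 489, 602 and 429 normalized CPM in RMA-KR late and to 284, 335, 238 and 419 in the controls, with Ighm the most abundant, and dendritic cell markers to 895, 901 and 794 against 669, 390, 455 and 611, with Itgax the most abundant. In RMA intermediate, dendritic cell markers summed to 775, 905 and 910. Each sum rests mostly on 1 gene, since the next gene after Itgax (mean 697) was Zbtb46 (17.8) and the next after Ighm (336) was Igkc (10.8), and the defining genes Cd79a, Ms4a1, Pax5, Flt3 and Clec9a were under 1 on average. Macrophage and monocyte markers summed to 2170, 1919 and 2199 in RMA-KR late and to 1755, 1858, 1919 and 1593 in the controls, with Ccr2 the most abundant (1210) and Adgre1, C1qa, C1qb, C1qc, Cd14 and Vcam1 under 1. The part of these lists in the results was not tested.

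Counts of Tyrobp over counts of Hcst were 13.0, 12.4, 13.6 and 11.6 in the controls and 15.9, 17.0 and 15.3 in RMA-KR early, with no overlap. RMA early had 12.7, 16.4 and 12 and RMA-KR intermediate 15, 18.1, 14.9, 11.3 and 13.5, and both overlapped the controls. RMA intermediate had 13.6, 15.7 and 14.3, its lowest level with the highest control. Each of these groups held a library within or above the range of RMA-KR early. Late libraries had 26.8, 16.4 and 14.8 in RMA, all above the controls, and 12.3, 21.6 and 13.1 in RMA-KR, which overlapped them. Counts of Klrk1 over counts of Klrd1 had group means from 1.70 (RMA late) to 2.27 (RMA-KR early), and 1.97 in the controls.

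Counts of members are given here beside the share of all genes. The comparisons with control share the same 4 control libraries, and other comparisons share tumor groups, so they are not independent of each other. The plot of the changes shows the log2 fold change of each member in each of the 6 comparisons with control, with its interval.

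**Figure D4:**
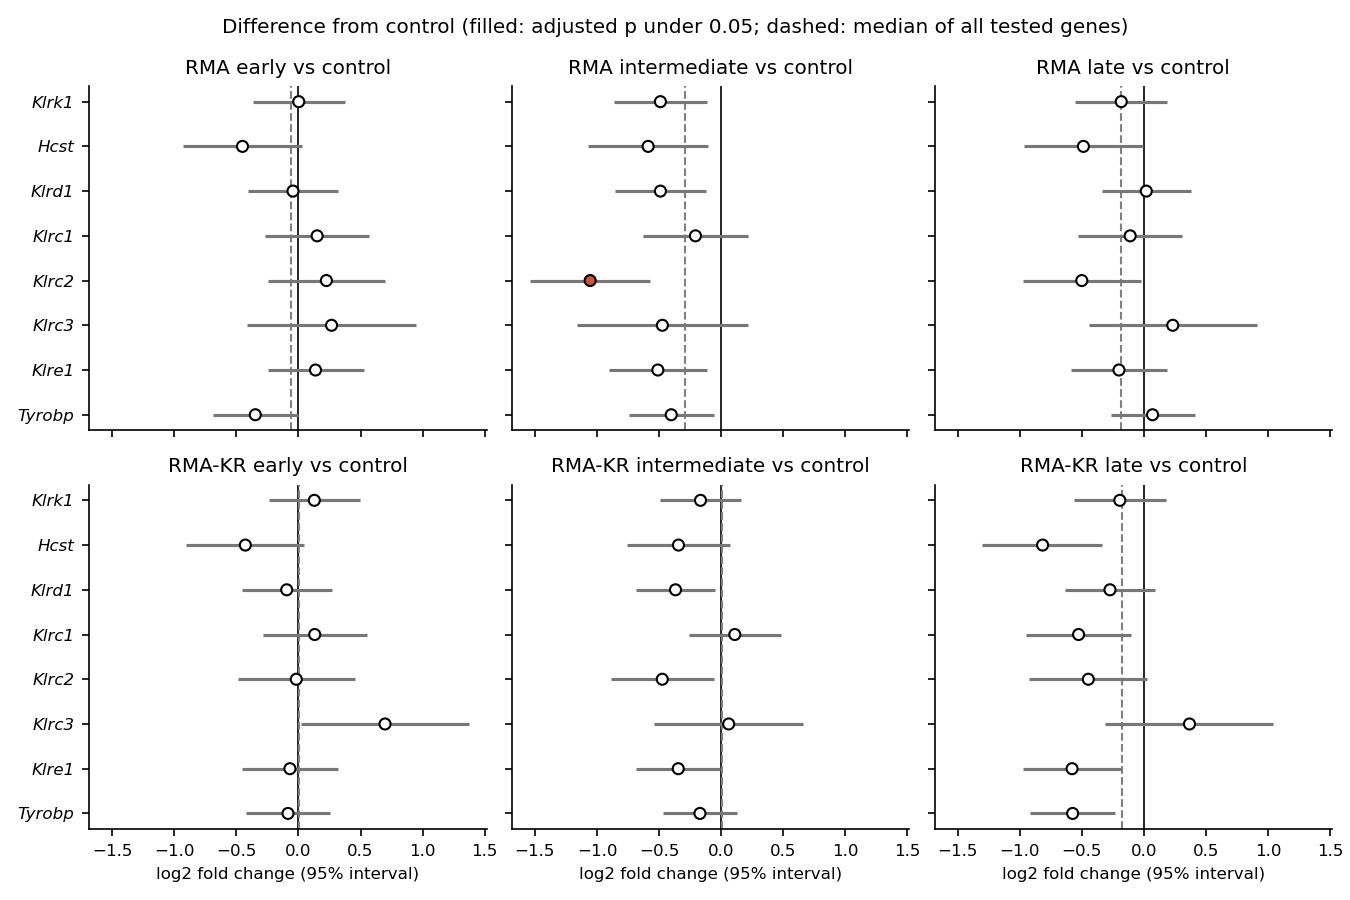
Log2 fold change of each member in each tumor group against control, with 95% intervals. The filled point is called, and dashed lines are the medians over all genes tested.

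In RMA intermediate against control 1 of 8 members was called (Klrc2), beside 401 of 17097 genes (2.35%). Klrc2 was also lower by more than 2-fold, as were 0.386% of all genes, counting those called. All 8 members had a negative log2 fold change, with a median of -0.49 beside -0.29 over all genes. Klrk1 and Klrc2 lay below all controls without overlap, as did 10.5% of all genes, and 6 were lower at unadjusted p under 0.05, where 15.9% of all genes passed in either direction. The median over all genes depends on the filter and the tool, from -0.53 with DESeq2 and -0.48 without a filter to -0.04 when each gene tested must reach 10 counts in each library.

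In RMA early against control 0 of 8 members and 0 genes (0%) were called by edgeR, with 1 member and 1204 genes at unadjusted p under 0.05, and DESeq2 called 0 members and 76 genes. In RMA late against control 0 members were called, beside 2.66% of all genes, with 2 members and 14% of all genes at unadjusted p under 0.05, and DESeq2 called 0 members beside 1054 of 11897 genes. Klrc2 alone lay below all controls there without overlap, as did 8.81% of all genes. The median log2 fold change of the members was 0.07 in RMA early (-0.06 over all genes) and -0.15 in RMA late (-0.185 over all genes).

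In RMA-KR early against control edgeR called 0 members beside 0.0994% of all genes, with 1 member and 8.71% of all genes at unadjusted p under 0.05 and 0 members called by DESeq2 beside 212 of 13583 genes. Only Klrc3 lay above all controls, as did 4.5% of all genes. In RMA-KR intermediate 0 members were called beside 0.0175% of all genes, with 3 members and 5.91% of all genes at unadjusted p under 0.05 and 0 members called by DESeq2 beside 41 of 11026 genes. Those 3 were Klrc2 (log2 fold change -0.47, and -0.15 without the 4 libraries that stand apart), Klrd1 (-0.37 and -0.14) and Klre1 (-0.35 and -0.11). In RMA-KR late edgeR called 0 members beside 1.22% of all genes, with 4 members and 14.2% of all genes at unadjusted p under 0.05, while DESeq2 called 2 members (Hcst and Tyrobp) beside 663 of 16021 genes. Hcst, Tyrobp, Klrc1 and Klre1, 4 of the 8, lay below all controls there without overlap, as did 7.73% of all genes, and the median of the members was -0.49 beside -0.175 over all genes. This median over all genes was -0.265 without a filter and -0.0131 with 10 counts required in each library. All but 1 of the 8 had a negative log2 fold change in RMA-KR late, and the 1 positive was Klrc3 (0.37, adjusted p 0.647).

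Between the tumors at the same stage edgeR called 0 members. For RMA early against RMA-KR early this is beside 0.339% of all genes, with 0 members and 12.3% of all genes at unadjusted p under 0.05 and 0 members called by DESeq2 beside 437 of 13583 genes. For RMA intermediate against RMA-KR intermediate it is beside 0.643% of all genes, with 1 member and 14.2% of all genes at unadjusted p under 0.05 and 0 members called by DESeq2 beside 444 of 16845 genes, and only Klrc2 was lower in RMA intermediate without overlap, as were 3.36% of all genes. For RMA late against RMA-KR late 0 of all genes (0%) were called, with 1 member and 1249 genes at unadjusted p under 0.05, and DESeq2 called 0 members and 67 genes. Tyrobp and Klrd1 were higher in RMA late without overlap, as were 5.18% of all genes. The members' median log2 fold change was 0.31 in that comparison, beside 0.06 over all genes.

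Over the course of the tumors, RMA late against RMA early had 0 members called by edgeR beside 2.87% of all genes, with 2 members (Klrc2 lower, Tyrobp higher) and 17.2% of all genes at unadjusted p under 0.05, and DESeq2 called 1 member (Klrc2) beside 1362 of 14393 genes. Klrk1 and Klrc2 were lower without overlap in RMA late, as were 7.63% of all genes, and Tyrobp was higher without overlap, as were 11.5%. RMA-KR late against RMA-KR early had 0 members called by edgeR beside 0.392% of all genes, with 3 members and 15% of all genes at unadjusted p under 0.05 and 0 members called by DESeq2 beside 609 of 15211 genes. Tyrobp, Klrc1, Klrc2 and Klre1, 4 of the 8, were lower there without overlap, as were 8.28% of all genes, and all 8 log2 fold changes were negative, with a median of -0.41 beside -0.10 over all genes. For the difference of these changes edgeR called 0 members and 0 genes (0%), with 1 member and 1777 genes at unadjusted p under 0.05, and DESeq2 called 0 members and 159 genes.

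Across the 24 libraries, of which those of a group share its condition, the members' log2 levels were most alike for Klrk1 and Klrc2 (Pearson r 0.84), Klrd1 and Klre1 (0.777) and Klrc2 and Klrd1 (0.746). The adaptors Hcst and Tyrobp had r 0.608. Klrc3 had r between -0.0445 and -0.0241 with Hcst, Tyrobp and Klrc1.

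Among 8365 other genes with a mean of at least 10 normalized CPM, the 3 most like each member over the same 24 libraries were named. For Klrc2 they were Rbm39 (r 0.889), Pnisr (0.881) and Ddx5 (0.879), and for Klrk1 Rnf181 (0.841), Maf1 (0.837) and Rbm39 (0.829). Klrd1 was most like Ube2b (0.853), Klra14-ps (0.816) and Pnrc2 (0.796), and Klre1 most like Klra14-ps (0.845), Exoc6 (0.784) and N4bp2l2 (0.775). For Klrc1 the genes were Cbr1 (0.735), Arrdc3 (0.711) and Cd226 (0.691), and for Klrc3 Trbj1-1 (0.779), Slc2a4rg-ps (0.755) and Rsrp1 (0.742). The adaptors had Dpm3 in common, at r 0.771 with Hcst and 0.78 with Tyrobp, next to Rabac1 (0.818) and Txnip (0.67) for Hcst and Lamtor4 (0.741) and H2afj (0.735) for Tyrobp. The highest of these, Rbm39 with Klrc2, was 0.871 without the 4 libraries that stand apart.

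The ligands come next. Of 10 ligand genes of NKG2D, 5 are in the table and 2 had enough counts to be tested, Ulbp1 (mean 33.2 normalized CPM) and H60b (1.12). Neither Ulbp1 nor H60b was called in any comparison. Raet1d, Raet1e and H60c were too low to be tested, with 0 counts in most libraries. The highest counts were 62 for Raet1e and 17 for Raet1d, both in RMA-KR early 2, and 24 for H60c in RMA-KR early 1. The next highest were 2 for Raet1e (RMA late 3), 9 for Raet1d (RMA intermediate 1) and 4 for H60c (control 1 and RMA late 3). The source of these reads was not tested. Ulbp1 had 30.9, 23, 28.4 and 24.6 normalized CPM in the controls, 52.3, 53.5 and 55.0 in RMA late and 57.6, 47.2 and 65.3 in RMA-KR late. Both late groups lay above all controls, as did 9.24% of all genes in RMA late and 5.88% in RMA-KR late. The other groups varied widely, from 9.47 to 46 in RMA early and from 22.6 to 56 in RMA intermediate. RMA-KR early ranged from 0.23 to 26.5 and RMA-KR intermediate from 10.5 to 48.3. The log2 fold change of Ulbp1 was 1.00 in RMA late (standard error 0.711, adjusted p 0.577) and 1.09 in RMA-KR late (standard error 0.711, adjusted p 0.482).

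The ligand of the CD94/NKG2 receptors is Qa-1 (H2-T23), and a further 7 listed genes encode MHC-I heavy chains (H2-D1, H2-K1), the light chain B2m, and the proteins that load peptides (Tap1, Tap2, Tapbp, Erap1). All 8 were tested. In RMA intermediate against control all 8 had a positive log2 fold change, 3 were called (2.35% of all genes were), and the median was 0.68 beside -0.29 over all genes. In RMA late against control all 8 were positive and 3 were called (2.66% of all genes), with a median of 0.55 beside -0.185. In RMA-KR late against control 0 were called by edgeR and 7 were positive, with a median of 0.29 beside -0.175. RMA late against RMA early had 2 called (2.87% of all genes) and a median of 0.46 beside -0.05, and the other 8 comparisons had 0 called. T cell markers, which would also show the RMA lymphoma, summed to 748.5, 652 and 577 normalized CPM in RMA late. The controls had 585, 473, 460.5 and 533, and RMA early 394, 582 and 500, so the groups overlapped. Dendritic cell markers summed to 741, 633 and 1002 in RMA late and to 557, 719 and 814.5 in RMA early, with the controls as given above. The part of these lists in the RMA late results, including Zap70 below, was not tested.

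H2-T23 had 274, 590, 663 and 510 normalized CPM in the controls and 792, 845 and 857 in RMA intermediate. The groups did not overlap, and control 1 was the lowest control. H2-T23 rose by 0.71 on the log2 scale (standard error 0.190, adjusted p 0.0493). This call was kept without control 3 (adjusted p 0.0294) and lost without control 1 (log2 fold change 0.47, adjusted p 0.109), control 2 (0.75, 0.0643), control 4 (0.67, 0.130), RMA intermediate 1 (0.77, 0.0983), RMA intermediate 2 (0.73, 0.140) or RMA intermediate 3 (0.72, 0.167). Without the 4 libraries that stand apart it was lost as well (adjusted p 0.116), as it was with only the 2 groups fitted (0.0774).

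Tap1 had 296, 350.4, 385 and 358 normalized CPM in the controls, 709, 673 and 720.3 in RMA intermediate and 510, 643 and 707 in RMA late. Both RMA groups lay above all controls. Tap1 rose by 1.01 in RMA intermediate (standard error 0.188, adjusted p 0.00420), and no library's removal changed that call, nor did that of the 4 that stand apart (1.04, adjusted p 0.00230). In RMA late it rose by 0.84 (standard error 0.188, adjusted p 0.0142), a call lost without control 1 (0.75, adjusted p 0.0694) or RMA late 2 (0.83, adjusted p 0.0666) and kept without the 4 libraries that stand apart (0.86, adjusted p 0.00901). Tapbp had 421, 732, 608 and 708 normalized CPM in the controls and 872, 1301 and 1291 in RMA intermediate, again without overlap. It rose by 0.90 (standard error 0.170, adjusted p 0.00459), and no library's removal changed the call, nor did that of the 4 (0.99, adjusted p 0.0108).

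H2-K1 had 7638, 7759, 8757 and 6935 normalized CPM in the controls, 6484, 8480 and 7466 in RMA early, and 12540, 10830 and 9783 in RMA late. RMA late lay above both other groups. It rose by 0.51 in RMA late against control (standard error 0.121, adjusted p 0.0204), lost without control 1 (0.48, adjusted p 0.0673), control 2 (0.48, 0.0634), control 4 (0.43, 0.102), RMA late 1 (0.44, 0.127) or RMA late 2 (0.55, 0.0852) and kept without the 4 libraries that stand apart (0.465, 0.0315). Against RMA early it rose by 0.56 (standard error 0.130, adjusted p 0.0205), lost without RMA early 1 (0.48, 0.170), RMA early 3 (0.56, 0.0537), RMA late 1 (0.52, 0.0756) or RMA late 2 (0.58, 0.0994), and with only the 2 groups fitted (0.53, 0.164). H2-D1 had 6297, 6730 and 7185 normalized CPM in RMA early and 12050, 9793 and 9389 in RMA late, with no overlap. It rose by 0.63 (standard error 0.161, adjusted p 0.0354), a call kept without RMA late 3 and lost without RMA early 1 (0.59, 0.179), RMA early 2 (0.63, 0.0824), RMA early 3 (0.67, 0.0547), RMA late 1 (0.56, 0.148) or RMA late 2 (0.67, 0.120), and with only the 2 groups fitted (0.59, 0.132).

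B2m had 3143, 5374, 6406 and 4211 normalized CPM in the controls and 8324, 9056 and 6381 in RMA late. The lowest RMA late library was level with the highest control, so the groups overlap. B2m rose by 0.73 (standard error 0.189, adjusted p 0.0368), a call kept without control 3 or RMA late 3 and lost without control 1 (0.55, 0.149), control 2 (0.76, 0.0559), control 4 (0.64, 0.138), RMA late 1 (0.72, 0.130) or RMA late 2 (0.65, 0.230). It was also lost without the 4 libraries that stand apart (adjusted p 0.151) and with only the 2 groups fitted (0.0698). The most abundant of the 8 by counts were H2-K1 (mean 9038), H2-D1 (8442) and B2m (5552).

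**Figure D5:**
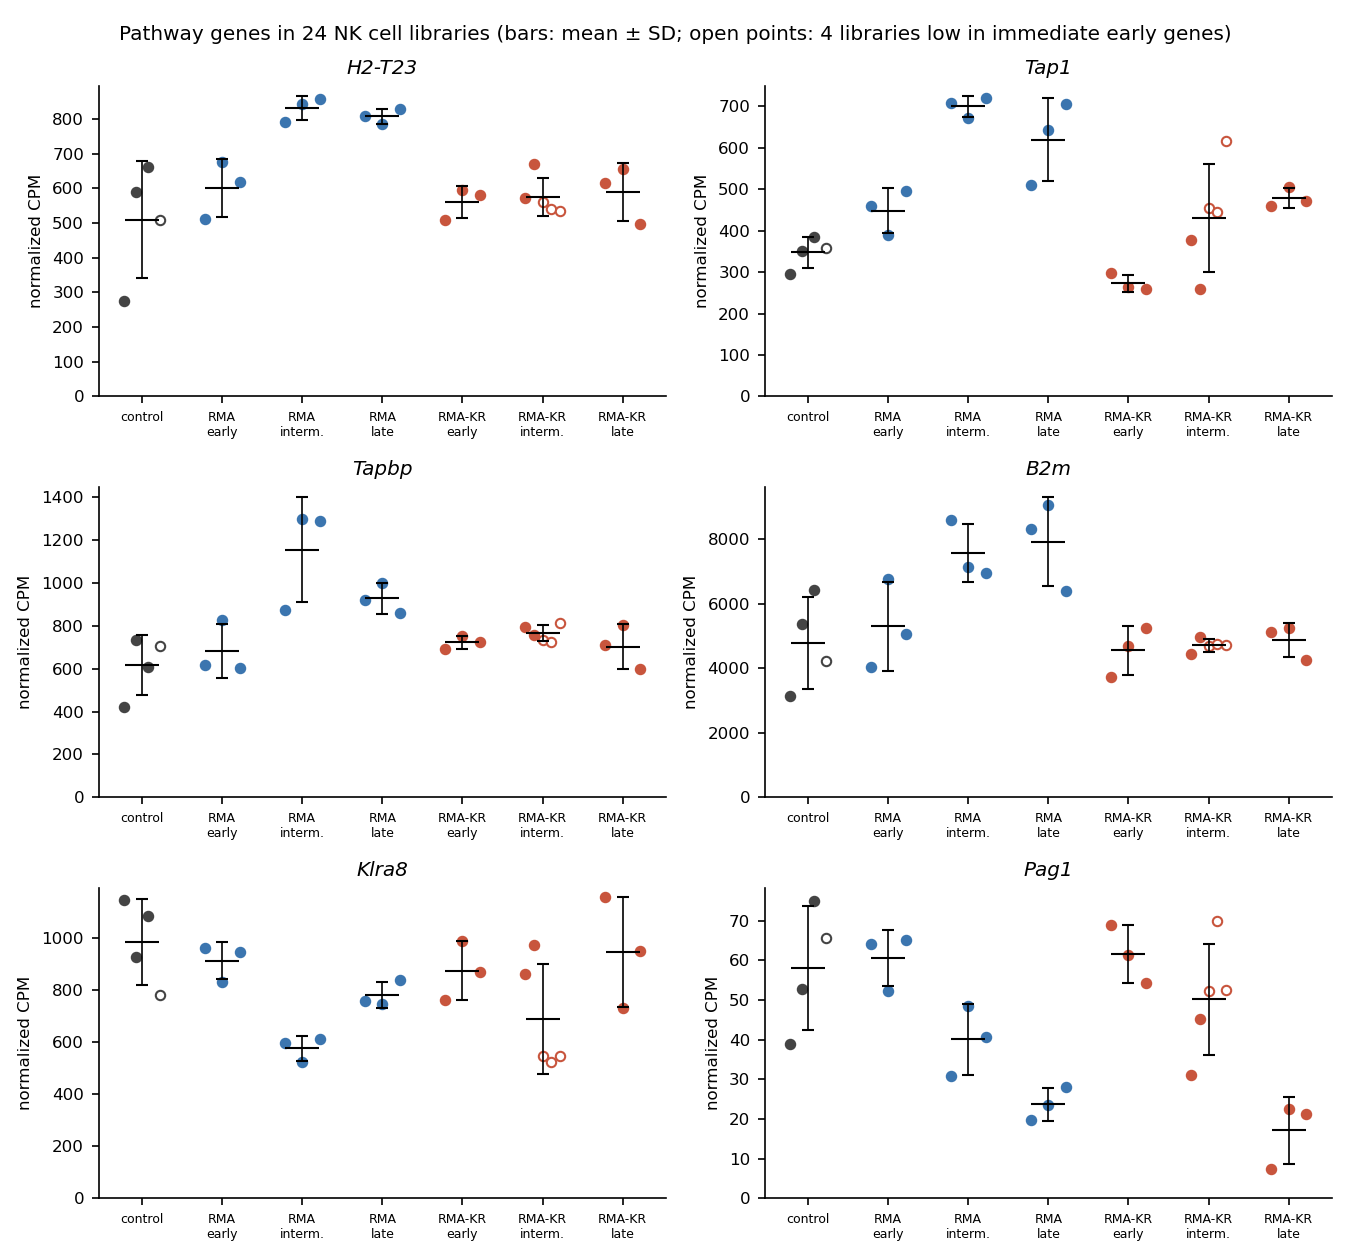
Normalized CPM of H2-T23, Tap1, Tapbp, B2m, Klra8 and Pag1 in each library, by group, with the mean and SD. Open points are the 4 libraries that stand apart.

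The plot of the pathway genes shows the libraries of the ligand genes above and of Klra8 and Pag1, described below. Of 17 genes listed below DAP10, all tested, 0 were called by edgeR in any comparison, and the highest counts were those of Rac2 (mean 2664), Pik3cd (585) and Pik3r1 (573). Over the 12 comparisons the share of all genes called was 0% to 2.87%. Their median log2 fold change was -0.13 in RMA intermediate against control (-0.29 over all genes) and -0.16 in RMA-KR late against control (-0.175 over all genes).

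The list for signaling below DAP12 has 21 genes, all tested. It includes Fcer1g and Cd247, which encode adaptors that act beside DAP12 and not below it. Lck (mean 1950 normalized CPM) and Fcer1g (948) were the most abundant, and 1 gene was called in 1 comparison. That comparison was RMA late against RMA early, in which 2.87% of all genes were called. Zap70, a kinase that binds phosphorylated DAP12, had 210, 301 and 192 normalized CPM in RMA early and 415, 414 and 374 in RMA late, with no overlap. It rose by 0.77 (standard error 0.174, adjusted p 0.0171), kept without RMA early 2 or RMA late 3 and lost without RMA early 1 (0.71, 0.121), RMA early 3 (0.65, 0.0687), RMA late 1 (0.81, 0.0645) or RMA late 2 (0.75, 0.0978), without the filter on low counts (0.80, 0.0606), and with only the 2 groups fitted (0.74, 0.174). The median of the list was 0.15 in RMA intermediate against control (-0.29 over all genes) and -0.05 in RMA-KR late against control (-0.175 over all genes).

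Of 7 genes listed for inhibition below NKG2A, with Ptpn6 (mean 445 normalized CPM), Inpp5d (329) and Csk (196) the most abundant, only Pag1 was called. The call was made in RMA-KR late against control (1.22% of all genes called) and against RMA-KR early (0.392%). It was also made in RMA late against control (2.66%) and against RMA early (2.87%). Pag1 encodes a membrane protein that recruits the kinase CSK. It had 38.8, 52.9, 74.9 and 65.5 normalized CPM in the controls, 19.7, 23.5 and 28 in RMA late and 7.39, 22.6 and 21.4 in RMA-KR late. Early libraries had 64.2, 52.4 and 65.2 in RMA and 68.9, 61.3 and 54.3 in RMA-KR. Both late groups lay below all control and all early libraries, and RMA-KR late 1 was the lowest of these.

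In RMA-KR late Pag1 fell by 1.76 against control (standard error 0.346, adjusted p 0.0106), a call lost without RMA-KR late 1 (-1.41, adjusted p 0.0621) or with only the 2 groups fitted (-1.74, adjusted p 0.104) and kept without the 4 libraries that stand apart (-1.65, adjusted p 0.0492). Against RMA-KR early it fell by 1.84 (standard error 0.361, adjusted p 0.0269), lost without RMA-KR early 1 (-1.78, 0.109), RMA-KR early 2 (-1.82, 0.0695) or RMA-KR late 1 (-1.49, 0.0689), and with only the 2 groups fitted (-1.87, 0.263). In RMA late Pag1 fell by 1.29 against control (standard error 0.339, adjusted p 0.0386), kept without control 1 and lost without control 2 (-1.36, 0.0549), control 3 (-1.17, 0.104), control 4 (-1.25, 0.0940), RMA late 1 (-1.14, 0.289), RMA late 2 (-1.26, 0.213) or RMA late 3 (-1.39, 0.0664), and also without the 4 libraries (-1.22, 0.125) or without the filter (-1.29, 0.112). Against RMA early it fell by 1.35 (standard error 0.356, adjusted p 0.0403), a call lost when any 1 of the 6 libraries was left out: RMA early 1 (-1.30, 0.143), RMA early 2 (-1.44, 0.0609), RMA early 3 (-1.30, 0.0717), RMA late 1 (-1.18, 0.241), RMA late 2 (-1.35, 0.178) or RMA late 3 (-1.48, 0.0553). This call was also lost without the filter (-1.32, 0.114), with only the 2 groups fitted (-1.39, 0.139) and without the 4 libraries (-1.39, 0.0527).

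Of 8 listed receptors that also pair with DAP12, 5 had enough counts to be tested, and 3 of those (Cd300ld, Trem1 and Siglech) had means of 0.486 to 0.624 normalized CPM. Klra4 (mean 1317) encodes Ly49D and was called in no comparison, and Klra8 (mean 820.4) encodes Ly49H. Both belong to a family of near-identical genes, so their counts are uncertain. Klra8 had 1149, 928, 1087 and 781 normalized CPM in the controls and 599, 523 and 611 in RMA intermediate, with no overlap. Klra8 was the only 1 of the 5 called, in RMA intermediate against control, where 2.35% of all genes were called. It fell by 0.77 (standard error 0.204, adjusted p 0.0428), kept without control 4 (-0.91, adjusted p 0.0362) or without the 4 libraries that stand apart (-0.85, 0.00939) and lost without control 1 (-0.72, 0.125), control 2 (-0.84, 0.0583), control 3 (-0.76, 0.0977), RMA intermediate 1 (-0.76, 0.180), RMA intermediate 2 (-0.67, 0.288) or RMA intermediate 3 (-0.78, 0.180).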

How the data were processed

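Counts per gene for 24 libraries of sorted mouse spleen NK cells are raw reads per gene as the authors deposited them, made with cutadapt 1.10, Bowtie2 2.2.8, STAR 2.5.3a on mm10 and HTSeq 0.6.1p1. The table's 48 other per-library columns (scaled values) and 29 columns of its own comparisons were not used. Genes were filtered with filterByExpr (17097 of 45237 kept), scaled by TMM and fitted with edgeR 4.0.16 (robust quasi-likelihood, 1 mean per group over all 24 libraries, limma 3.58.1, R 4.3.3), adjusted by Benjamini-Hochberg over the 17097 genes with a threshold of 0.05 in each of 12 comparisons. The common biological coefficient of variation was 0.852. Code was tested on simulated data.

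Libraries held 5138651 to 14863500 counts. Over 31 pairs of libraries of 1 group the chi-square per degree of freedom was 19.4 to 112, and the mean correlation of a library with its group was 0.875 to 0.977. Library numbers were not treated as pairs, since libraries with the same number in different groups were no more alike (mean r -0.00278) than those with other numbers (0.00111).

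All 8 members are named. From the pathway lists, every gene called in any comparison and the 3 of highest mean level are named (1 is not reported), and for likeness the 3 genes of highest Pearson r. The members and lists were chosen with earlier results of these data known. Alternatives were DESeq2's size factors, no minimum of counts, a minimum of 10 in each library, a replicate block, only the groups compared, DESeq2 1.42.0 with default settings and with betaPrior=TRUE (its older default), each library left out and, chosen after seeing the data, 4 libraries left out. A fit with a term for those 4 libraries was made once and is not used, because the labels name no batch. Intervals come from the spread between libraries and do not cover reads shared between similar genes.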

Additional observations from a re-analysis of the deposited data

Results flagged for a closer look

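In each group of 4 or 5 libraries, the highest or lowest library was compared with the rest, over 38 groups of values in all, and 2 had a library far from the others. Chance flags about 1 in 20 groups. H2-T23 in RMA-KR intermediate ranged from 536 to 671 normalized CPM, with RMA-KR intermediate 2 highest, and the gap to the next library was 0.732 of the range (limit 0.71 for 5 libraries). Zap70 in the controls ranged from 253 to 304, with control 4 highest, and the gap was 0.848 of the range (limit 0.829 for 4 libraries).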

How the results depend on the processing

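Of 96 log2 fold changes of members under 8 other ways of processing (768 values), 725 kept their direction and their side of the threshold, 13 became called and 30 changed direction, and with 1 library left out (704 values) 659 kept both, 3 lost the call and 42 changed direction. No gene changed direction in a comparison that called it, and the cause of these changes was not tested. Klrc2 in RMA intermediate against control was called in 8 of 8 other alternatives (log2 fold change -1.19 to -1.03) and in 4 of 7 fits with 1 library left out. With the library number as a replicate block, as in a paired design, it was -1.19 (adjusted p 0.0085).

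The number of members called was 1 in RMA intermediate against control, 0 to 1 with 1 library left out, and 2 with only the groups compared (Klrk1, Klrc2, beside 1246 of 12191 genes). In RMA-KR late against control it was 0, and 1 (Tyrobp) without the filter on low counts (458 of 45237 genes) or with 10 counts required in each library (300 of 7800), and 2 (Hcst, Tyrobp) with DESeq2 in its default (663 of 16021) or betaPrior=TRUE setting (580 of 11897). In RMA late against RMA early it was 0, and 1 (Klrc2) with 10 counts required (859 of 7800), with DESeq2 (1362 and 1217 of 14393), or without the 4 libraries that stand apart (402 of 17958). In RMA intermediate against RMA-KR intermediate it was 0, and 1 (Klrc2) without those 4 (90 of 17958). For the difference between the changes from early to late it was 0, and 1 (Tyrobp) without the filter (119 of 45237). The cause was not tested.

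Genes called by the reported fit, and the fewest and most under the other alternatives and then with 1 library left out, were 0 (0 to 91, 0 to 88) in RMA early, 401 (265 to 1246, 191 to 277) in RMA intermediate, 455 (289 to 1054, 143 to 581) in RMA late, 17 (0 to 212, 0 to 13) in RMA-KR early, 3 (0 to 79, 0 to 4) in RMA-KR intermediate and 208 (103 to 663, 82 to 181) in RMA-KR late, each against control. They were 58 (0 to 437, 8 to 198) between the early groups, 110 (47 to 444, 40 to 81) between the intermediate groups, 0 (0 to 67, 0 to 2) between the late groups, 491 (1 to 1362, 92 to 653) from RMA early to late, 67 (2 to 609, 14 to 57) from RMA-KR early to late and 0 (0 to 159, 0 to 57) for the difference of these changes.

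Direction changed as follows. With DESeq2's size factors the log2 fold change became 0.029 for Klrd1 in RMA early, 0.0219 for Klrc2 in RMA-KR early, 0.0109 for Hcst between the early groups, -0.0104 for Klrk1 between the late groups and -0.0176 for Klrd1 from RMA early to late. With 10 counts required it became 0.00383 for Klrd1 in RMA early, -0.000154 for Klrd1 in RMA late, 0.00298 for Klrc2 in RMA-KR early, 0.00396 for Hcst between the early groups and -0.00399 for Klrd1 from RMA early to late. DESeq2 gave (default, then betaPrior=TRUE) 0.0293 and 0.0275 for Klrd1 in RMA early, 0.0233 and 0.0188 for Klrc2 in RMA-KR early, 0.00952 and 0.00911 for Hcst between the early groups, -0.0128 and -0.0124 for Klrk1 between the late groups, and -0.0198 and -0.0193 for Klrd1 from RMA early to late. Without the filter Klrk1 became -0.0249 in RMA early and Klrc1 -0.0116 between the early groups, and with only the groups compared Klrk1 became -0.0146 between the late groups. With the replicate block Klrk1 became -0.0621 in RMA early, Klrd1 -0.0872 in RMA late and Klrc3 -0.0199 in RMA-KR intermediate. Without the 4 libraries, an alternative chosen after seeing the data, Klrd1 became -0.0786 in RMA late, Klrk1 0.169 and Tyrobp 0.00637 in RMA-KR intermediate, and Klrk1 -0.0201 between the late groups.

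With 1 library left out the log2 fold changes that changed direction ranged, in RMA early against control, from -0.105 to 0.102 for Klrk1 and from -0.138 to 0.0557 for Klrd1. In RMA late against control the ranges were -0.0544 to 0.229 for Tyrobp, -0.237 to 0.0954 for Klrc1 and -0.116 to 0.147 for Klrd1. For RMA-KR early they were -0.165 to 0.0503 for Tyrobp, -0.119 to 0.206 for Klrc2, -0.185 to 0.0239 for Klrd1 and -0.126 to 0.0794 for Klre1, for RMA-KR intermediate -0.0878 to 0.226 for Klrc3, and for RMA-KR late -0.364 to 0.0247 for Klrk1. Between the early groups they were -0.136 to 0.109 for Hcst, -0.0872 to 0.139 for Klrc1 and -0.0542 to 0.126 for Klrd1, between the intermediate groups -0.248 to 0.0476 for Klrd1, and between the late groups -0.175 to 0.175 for Klrk1, -0.205 to 0.143 for Klrc2 and -0.426 to 0.0555 for Klrc3. From RMA early to late they were -0.178 to 0.167 for Hcst and -0.177 to 0.231 for Klrc3, and for the difference of the changes -0.0762 to 0.314 for Klrk1, -0.0206 to 0.571 for Klrc3 and -0.0142 to 0.276 for Klre1.

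No gene of the pathway lists changed direction in a comparison that called it. Tap1 in both RMA groups, Tapbp and Klra8 were called in 8 of 8 other alternatives, H2-K1 in 7 in both comparisons, H2-D1 in 7, Zap70 in 6, and H2-T23 and B2m in 5. Pag1 was called in 7 of 8 in both RMA-KR comparisons and in 5 of 8 in both RMA comparisons. The report names the losses, and with the replicate block the calls lost were H2-T23 (adjusted p 0.0739), and in RMA late against control H2-K1 (0.0713), B2m (0.081) and Pag1 (0.077).

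Groups of 3 to 5 libraries leave wide intervals, and a member that is not called is not shown to be unchanged. Reads shared among Klrc1, Klrc2 and Klrc3 limit their counts at any depth.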
